A study of Caenorhabditis elegans with 2 samples.

Results

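The genes described here are the Rab, SEC, COG, VPS and exocyst genes of Caenorhabditis elegans, which encode the machinery that moves membrane between compartments of the cell. They are the nuclear protein-coding genes whose names begin with rab-, sec-, cogc-, vps- or exoc- in the WBcel235 annotation, 79 of 19973 genes. By name they are 20 rab, 19 sec, 7 cogc, 31 vps and 2 exoc genes. The data are chromatin immunoprecipitation sequencing (ChIP-seq), which lists the stretches of genome recovered with a protein, here the product of gene R02D3.7 (rcat-1 in the annotation) carrying an eGFP tag. The animals were L3 larvae of mixed sex, taken whole, of strain OP218, genotype unc-119(ed3) III with the transgene insertion wgIs218. The 2 biological replicates form 1 group, all animals carry both the unc-119 allele and the tagged transgene, and no control sample was analysed here. The labels name neither the promoter of the transgene nor the cells that express it, and whole larvae mix all tissues, so a region cannot be assigned to a cell type.

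Membrane proteins and secreted proteins enter the endoplasmic reticulum (ER) through the Sec61 translocon, leave it in vesicles with a COPII coat, and pass through the Golgi. Rab GTPases mark each compartment and recruit tethers such as the exocyst at the plasma membrane, COG and GARP at the Golgi, and HOPS at the lysosome. From endosomes, retromer returns cargo to the Golgi, while the ESCRT complexes sort ubiquitinated proteins into internal vesicles for degradation. Most of these roles were worked out in budding yeast and mammalian cells.

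A gene is called bound below when a peak summit, the base of highest signal in a peak, lay between 1000 bp upstream and 200 bp downstream of one of its transcript starts in the IDR list. IDR, the irreproducible discovery rate, scores how far region ranks repeat in both replicates. The word means only that a peak was listed, since, with no sample of another tagged protein or of the tag alone, sites of the tagged protein cannot be told from sites listed whatever protein is tagged. The IDR list held 1584 peaks with a signal of 50.7 to 4055 and a median of 82.2. The longer lists held 30000 regions for the pooled replicates, 30000 for replicate 1 and 29367 for replicate 2, with median signals of 15, 7.48 and 10.1. Signal is the authors' own value for each region, on a scale that is not given and that differs between lists, so values are read within a list and ranks run from 1 at the highest signal. With 1 group of 2 replicates, and with genes that are not replicates, no test was made, and shares of members stand beside the same share of other protein-coding genes.

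A larger share of trafficking genes than of other genes was bound, and the ESCRT and translocon groups had the highest shares of the role groups. A peak was listed at 27 of the 79 trafficking genes (34.2%), where the share of all protein-coding genes was 7.71% and that of the 19894 other protein-coding genes was 7.60%. Role groups hold only genes with rab-, sec-, cogc-, vps- or exoc- names, so genes of a complex under other names were not counted. The translocon and signal peptidase group had 3 of 4 genes bound and the COPII coat 3 of 7. Of the ESCRT genes 9 of 11 were bound (81.8%), against 6 of 20 Rab genes (30%), 2 of 8 exocyst genes, 2 of 8 HOPS and CORVET genes, 1 of 5 GARP and EARP genes and 1 of 7 COG genes. The order of the leading groups turned with the rule, since the translocon share was above the ESCRT share without replicate 1 (75% and 63.6%), without replicate 2 (75% and 72.7%), with a window of 2000 and 500 bp (100% and 81.8%) and with the IDR peaks of higher signal (50% and 45.5%). None of the 3 retromer genes, the SNARE genes sec-20 and sec-22, the 2 PI3 kinase genes, or the pair vps-13 and vps-45 was bound. By name, 8 of 19 sec genes, 12 of 31 vps genes, 6 of 20 rab genes, 1 of 7 cogc genes and neither exoc gene were bound.

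**Figure D1:**
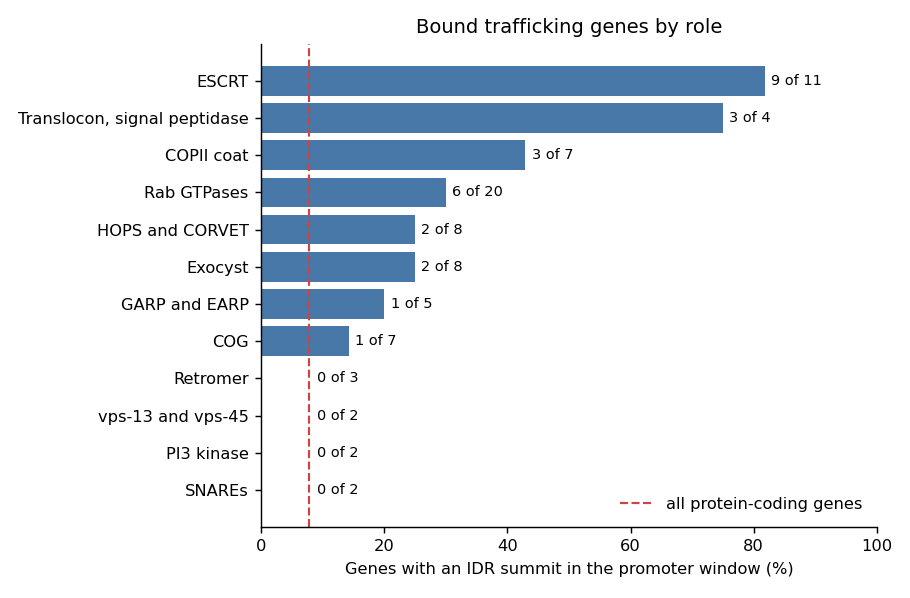
Share of genes with an IDR peak summit in the promoter window (x axis, percent) for each role group of trafficking genes (y axis), with the number bound of the number in the group at each bar and a dashed line at the share of all protein-coding genes, 7.71%. The ESCRT bar, 9 of 11, and the translocon bar, 3 of 4, are the longest, in an order that turns under other rules. The retromer, SNARE (sec-20 and sec-22) and PI3 kinase groups and the pair vps-13 and vps-45, which hold only 2 or 3 genes each, are at 0.

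Sequences under 10 summits of trafficking peaks are printed here as examples. Of these, 8 hold at least 1 of the 5 words most enriched at peaks over their flanks and 2 hold none. In the 200 bp around the summit, 18 of 29 trafficking peaks (62.1%) held such a word. The 10 sequences therefore favour peaks with a word, do not cover every chromosome, and do not stand for all trafficking peaks. Each is 141 bases centred on the summit, read 5′ to 3′ on the strand of the trafficking gene from the RefSeq WBcel235 genome, which is the ce11 build. Capitals mark 5 words of 6 bases on either strand, where overlapping words form 1 run of capitals. The first word is GCGCGC, the next is CGCGCG, followed by ACGCAG, which precedes ACGCGC, while the last is GACGCA. These words had the highest odds ratios of peaks against flanks on the 1555 IDR peaks outside the promoters of trafficking genes, so the trafficking peaks played no part in the choice.
sec-61.G, a translocon subunit, chrV:10897319-10897459, minus strand: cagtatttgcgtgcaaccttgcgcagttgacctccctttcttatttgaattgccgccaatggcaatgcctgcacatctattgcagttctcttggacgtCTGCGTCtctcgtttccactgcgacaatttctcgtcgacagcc
vps-32.1, an ESCRT-III subunit, chrII:6589000-6589140, plus strand: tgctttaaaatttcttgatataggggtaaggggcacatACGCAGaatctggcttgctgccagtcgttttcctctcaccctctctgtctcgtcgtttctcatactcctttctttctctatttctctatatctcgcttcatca
sec-24.1, a COPII subunit, chrIV:11566292-11566432, minus strand: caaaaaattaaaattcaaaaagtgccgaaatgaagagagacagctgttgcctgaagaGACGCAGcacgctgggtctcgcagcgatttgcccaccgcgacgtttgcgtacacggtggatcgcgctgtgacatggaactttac
sec-61.B, a translocon subunit, chrIV:2389098-2389238, minus strand: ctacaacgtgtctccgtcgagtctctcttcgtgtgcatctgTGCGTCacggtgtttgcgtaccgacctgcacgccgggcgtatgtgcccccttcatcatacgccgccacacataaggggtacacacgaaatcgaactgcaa
rab-7, a late endosome Rab, chrII:11967673-11967813, minus strand: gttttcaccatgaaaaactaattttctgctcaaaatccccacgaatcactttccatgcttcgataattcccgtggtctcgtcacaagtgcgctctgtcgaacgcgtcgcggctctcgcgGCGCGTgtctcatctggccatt
sec-3, an exocyst subunit, chrX:3099950-3100090, minus strand: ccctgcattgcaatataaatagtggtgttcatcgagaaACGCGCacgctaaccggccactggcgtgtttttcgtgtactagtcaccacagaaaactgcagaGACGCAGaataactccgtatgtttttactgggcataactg
vps-60, an ESCRT-III related protein, chrV:8606419-8606559, minus strand: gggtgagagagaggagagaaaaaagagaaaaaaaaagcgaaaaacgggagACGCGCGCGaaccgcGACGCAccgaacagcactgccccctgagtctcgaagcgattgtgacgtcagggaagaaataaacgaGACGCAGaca
vps-37, an ESCRT-I subunit, chrV:5592419-5592559, plus strand: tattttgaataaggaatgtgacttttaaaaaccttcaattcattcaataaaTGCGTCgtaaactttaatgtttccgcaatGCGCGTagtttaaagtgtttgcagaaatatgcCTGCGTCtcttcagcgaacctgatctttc
rab-18, with none of the words, chrIII:1080689-1080829, minus strand: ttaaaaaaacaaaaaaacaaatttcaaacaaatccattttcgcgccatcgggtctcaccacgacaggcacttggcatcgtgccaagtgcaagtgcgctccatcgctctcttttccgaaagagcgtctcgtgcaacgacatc
vps-22, with none of the words, chrIII:4963045-4963185, minus strand: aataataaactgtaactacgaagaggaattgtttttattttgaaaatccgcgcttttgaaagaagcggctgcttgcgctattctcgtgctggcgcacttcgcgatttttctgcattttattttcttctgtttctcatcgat

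The words fell into a CG repeat family and a GACGCAG family, and both occurred at trafficking and other peaks. At least 1 of the 5 words lay within the 200 bp around the summit of 18 of 29 trafficking peaks (62.1%) and of 830 of 1555 other peaks (53.4%). In flanking windows, equally long and 500 bp off on both sides, the share was 12.1% for trafficking peaks and 10.2% for other peaks. The words were chosen for their excess over flanks at the other peaks, so only the trafficking shares are apart from that choice. At the 52 unbound trafficking genes, the window centred 250 bp upstream of the outermost start held such a word in 2 cases (3.85%). That window sits at a fixed distance and not on a summit, and bound genes were not searched in it. Its share is therefore not directly comparable with that at peaks. The 5 words share letters and overlap in the sequence, so they do not count as separate findings, and a match is no proof of a site.

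Taken singly, each of the 5 words lay at a larger share of trafficking peaks than of trafficking flanks. At other peaks the excess over flanks was fixed by the choice of the words, and those shares are given for comparison. GCGCGC lay at 7 of 29 trafficking peaks (24.1%) and 14.2% of other peaks, against 1.72% of trafficking flanks and 1.48% of other flanks. CGCGCG lay at 4 of 29 trafficking peaks (13.8%) and 10.5% of other peaks, against 1.72% and 1.09% of the flanks. ACGCGC lay at 7 of 29 (24.1%) and 18.6%, against 3.45% and 2.70%. ACGCAG, which reads CTGCGT on the other strand, lay at 8 of 29 trafficking peaks (27.6%) and 26.2% of other peaks, against 6.90% and 3.76% of the flanks. GACGCA lay at 8 of 29 trafficking peaks (27.6%) and 25.4% of other peaks, against 5.17% and 4.12% of the flanks. Among words searched for comparison, GAGAGA lay at 8 of 29 trafficking peaks (27.6%) and 39.4% of other peaks. Its shares of trafficking and other flanks were 10.3% and 10.9%. CGCGAA lay at 7 of 29 (24.1%) and 13.5%, against 8.62% and 5.43% of the flanks. The E-box word CACGTG lay at 2 of 29 trafficking peaks (6.90%) and 6.43% of other peaks, against 5.17% and 3.99% of the flanks. The word TGATAA, which holds the core that GATA factors read, lay at 2 of 29 (6.90%) and 11.6%, against 17.2% and 17.8%. The word TATAAA lay at 8 of 29 (27.6%) and 12.9%, against 20.7% of trafficking flanks and 20.4% of other flanks. The median GC content was 43.0% at trafficking peaks, 43.0% at other peaks and 37% in the trafficking flanks, and the part of base composition in the word shares was not tested.

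In the longer lists too the share of trafficking genes was above the background, which was higher there. A pooled region had its summit in the window of 57 trafficking genes (72.2%), where all protein-coding genes had 41.7%. The replicate 1 list had one at 61 trafficking genes (77.2%, background 41.3%) and the replicate 2 list at 53 (67.1%, background 42.0%). When each replicate list was shortened to its first 1584 regions, 30 trafficking genes were covered in replicate 1 (38.0%, background 7.90%) and 24 in replicate 2 (30.4%, background 6.91%). Both shortened lists covered 22 trafficking genes (27.8%) and 5.49% of other genes. Only 10 trafficking genes had no region in any of the 3 long lists (12.7%), against 42.9% of other genes.

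Trafficking genes with a pooled region had a higher median signal than other such genes, while among bound genes the medians were close. Over genes with a pooled region, the median of the highest signal was 41.9 for trafficking genes (quartiles 19.6 and 104) and 19.7 for other genes (quartiles 13.9 and 36.9). Once bound, the median signal was 105 for trafficking genes (quartiles 79.1 and 151) and 96.1 for other bound genes (quartiles 65.8 and 185). Of the bound trafficking genes 1 of 27 lay in the first 100 ranks (3.7%), against 9.85% of other bound genes. In the first 400 ranks lay 9 of 27 (33.3%) and 33.9% of the others.

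**Figure D2:**
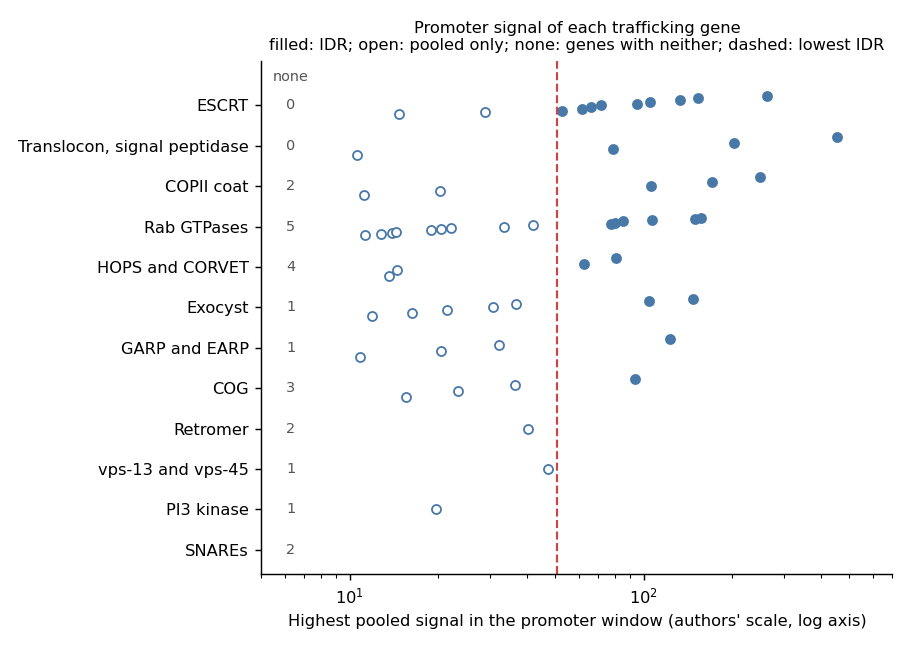
Highest pooled signal with its summit in the promoter window (x axis, authors' scale, log axis) for each trafficking gene with a pooled region, by role group (y axis). Filled points are bound genes, open points have a pooled region only, the column marked none counts genes with no pooled region, and the dashed line is the lowest IDR signal, 50.7; all 11 ESCRT genes have a pooled region and 9 lie above the line.

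The trafficking gene of highest signal, sec-61.G, acts at entry into the ER. The translocon genes sec-61.A, sec-61.B and sec-61.G, which encode the alpha, beta and gamma subunits of the protein channel, were all bound. The peak upstream of sec-61.G (V, 10897219 to 10897547, summit 246 bp upstream of the start) had the highest pooled signal of all trafficking genes, 453 at rank 85, with signals of 243 at rank 104 in replicate 1 and 208 at rank 65 in replicate 2. The sec-61.B peak (IV, 2389030 to 2389261) had a pooled signal of 203 at rank 237, with 93.2 at rank 314 in replicate 1 and 113 at rank 163 in replicate 2. The sec-61.A peak (IV, 14824968 to 14825351) was lower, with a pooled signal of 78.7 at rank 836, 42.9 at rank 830 in replicate 1 and 38.4 at rank 985 in replicate 2. All 3 genes ranked within the first 1584 regions of both replicates, and sec-61.A was the weakest in each.

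Neighbours shared each of these peaks. The sec-61.B summit lay 493 bp upstream of sec-61.B and 277 bp upstream of trap-3, named for the translocon-associated protein complex, so it was nearer the latter. The sec-61.A summit lay 104 bp downstream of the sec-61.A start, in its 5′ UTR, and 519 bp upstream of rps-18, a ribosomal protein gene. The sec-61.G summit also lay 846 bp upstream of F32D8.13. The fourth gene of the group, sec-11, which encodes the signal peptidase catalytic subunit, was not bound and had a pooled signal of 10.6 at rank 28271. A peak that lies in the windows of more than 1 gene cannot be assigned to either from these lists.

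Exit from the ER was marked at 3 of 7 COPII genes. The peak of sec-24.1, whose product selects cargo in the coat, had a pooled signal of 247 at rank 196 (IV, 11566219 to 11566482, summit 168 bp upstream), with 161 at rank 175 in replicate 1 and 88.8 at rank 231 in replicate 2. The peak of sec-12, the exchange factor that loads the coat GTPase in yeast, had a pooled signal of 171 at rank 291 (I, 8511384 to 8511551, summit 163 bp upstream), with 96.5 at rank 302 and 72.2 at rank 324. The peak of sec-16A.2, named for the scaffold of ER exit sites, had a pooled signal of 106 at rank 572 (X, 8286753 to 8287136, summit 304 bp upstream), with 59.8 at rank 557 and 45.2 at rank 728. These 3 peaks lay in the window of no other gene. Paralogs differed: sec-24.2 had no pooled region, while sec-16A.1 had one of 20.3 at rank 7610. The outer coat gene sec-31 had no region in any list.

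Of the 20 Rab GTPase genes with a rab- name, 6 were bound, and genes of this family under other names were not counted. The peak at rab-18, known in mammals from the ER and lipid droplets, had the highest signal of the family, 156 at rank 323 (III, 1080668 to 1080846), with 76.3 at rank 397 in replicate 1 and 81.6 at rank 257 in replicate 2. Its summit lay 16 bp downstream of the rab-18 start and also 142 bp upstream of kbp-4 and 642 bp upstream of par-2, a cell polarity gene. The peak at rab-7, the late endosome Rab, had 149 at rank 348 (II, 11967648 to 11967835), with 90.3 at rank 319 and 62.9 at rank 411. It lay 812 bp upstream of rab-7 but 199 bp upstream of W03C9.5, and 894 bp upstream of mex-1.

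The other 4 Rab peaks were lower and all lay in a shared window. The peak at rab-5, the early endosome Rab, had a pooled signal of 107 at rank 567 (I, 9307535 to 9307918), with 52.9 at rank 643 and 52.6 at rank 558, and lay 715 bp upstream of rab-5 and 883 bp upstream of nmat-2. The peak at rab-11.1, the recycling endosome Rab, had 84.8 at rank 761 (I, 110545 to 110928), with 49.7 at rank 695 and 37.5 at rank 1037, and lay 680 bp upstream of rab-11.1 but 301 bp upstream of the ribosomal protein gene rpl-7. The rab-5, rab-7 and rab-11.1 summits lay 680 to 812 bp from their own starts, and none of the 3 genes was bound with a window of 500 and 100 bp. With each peak given to its nearest start, rab-7 and rab-11.1 were not bound either. The peak at rab-14, an endosome and Golgi Rab in mammals, had 79.5 at rank 827 (X, 15606838 to 15607221), with 43.4 at rank 816 and 39.2 at rank 945, 395 bp upstream of rab-14 and 939 bp upstream of nipi-3. The peak at rab-39 had 77 at rank 861 (II, 9322948 to 9323331), with 46.7 at rank 747 in replicate 1 and 28.5 at rank 1660 in replicate 2, so it fell outside the first 1584 regions of the latter. It lay 220 bp upstream of rab-39 and 820 bp upstream of egli-1.

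Among unbound Rabs, rab-6.2, a Golgi Rab, was highest, with a pooled signal of 41.9 at rank 2091. Its replicates stood far apart, at 35.1 and rank 1080 in replicate 1 and 10.9 and rank 12305 in replicate 2. Its paralog rab-6.1 had no region in any list, as was the case for rab-10, rab-28 and rab-37, and rab-35 had one in replicate 1 only. The paralog of rab-11.1, rab-11.2, had a pooled signal of 11.3 at rank 25504. The ER to Golgi Rab gene rab-1 had 33.4 at rank 2942.

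Tethers at the plasma membrane and Golgi were marked at 2 of 8 exocyst genes (25%) and 1 of 7 COG genes (14.3%), where other protein-coding genes had 7.60%. The exocyst gene sec-15 had a pooled signal of 147 at rank 360 (X, 8835941 to 8836077), with 69.7 at rank 455 in replicate 1 and 73.2 at rank 315 in replicate 2, and its summit lay 266 bp upstream of sec-15 but 35 bp upstream of C28G1.2. The exocyst gene sec-3 had 104 at rank 587 (X, 3099828 to 3100211, summit 168 bp upstream, no other gene), with 57.5 at rank 584 and 47.6 at rank 648. The remaining 6 exocyst genes were not bound, and the highest, exoc-7, had 36.6 at rank 2539, with 30.5 at rank 1262 in replicate 1 and 12.1 at rank 9696 in replicate 2. In the COG complex, which tethers vesicles within the Golgi, only cogc-2 was bound, with 93.2 at rank 676 (IV, 7039462 to 7039845, summit 74 bp upstream), 45.8 at rank 761 and 48.1 at rank 631. The same summit lay 557 bp upstream of klp-18, a kinesin gene. The highest unbound COG gene was cogc-3, with 36.3 at rank 2579, 14.7 at rank 3802 and 20.9 at rank 2904.

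In the GARP and EARP tethers, which receive vesicles from endosomes, vps-51 was bound with 122 at rank 465 (I, 5807351 to 5807734), with 61.6 at rank 533 and 61.2 at rank 422. The summit lay 252 bp upstream of vps-51 but 166 bp upstream of lin-35, the worm retinoblastoma homolog. The other 4 subunit genes of these tethers had pooled signals of 10.8 for vps-53, 20.4 for vps-52 and 32.3 for vps-50, and no pooled region for vps-54.

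At the lysosome, 2 of 8 HOPS and CORVET genes were bound, both with modest signal. The peak of vps-39, a HOPS subunit in yeast, had a pooled signal of 80.7 at rank 812 (V, 14038356 to 14038739, summit 170 bp upstream), with 40.7 at rank 889 in replicate 1 and 33.8 at rank 1257 in replicate 2. A further peak of 60.4 at rank 1220 (V, 14038566 to 14038949) overlapped it, and both count among the trafficking peaks searched for words. The peak of vps-33.1, an SM family protein that acts on SNAREs, had 62.7 at rank 1159 (III, 8700554 to 8700937), with 33.7 at rank 1133 and 28 at rank 1709, 181 bp upstream of vps-33.1 and 407 bp upstream of sdz-1. Its paralog vps-33.2 had a region of 22.9 at rank 2420 in replicate 2 only, and vps-11 and vps-18 had no region in any list.

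All 3 core ESCRT complexes had marked genes. ESCRT-I was marked at vps-28 and vps-37, ESCRT-II at vps-22 and vps-25, ESCRT-III and its relatives at vps-2, vps-20, vps-32.1 and vps-60, and the ATPase that takes ESCRT-III apart at vps-4. The strongest was vps-32.1, the main filament subunit of ESCRT-III in yeast, with a pooled signal of 263 at rank 175 (II, 6588928 to 6589185), 155 at rank 183 in replicate 1 and 111 at rank 165 in replicate 2. Its summit lay 638 bp upstream of vps-32.1 but 415 bp upstream of icd-1, a nascent polypeptide-associated complex gene. Next came vps-22 with 153 at rank 335 (III, 4963041 to 4963190), 84.6 at rank 344 and 65.5 at rank 386, whose summit lay 622 bp upstream of vps-22 but 71 bp upstream of C27F2.9. Then came vps-4 with 133 at rank 420 (I, 1066980 to 1067363, summit 273 bp upstream, no other gene), 74.2 at rank 414 and 61.2 at rank 424. For these 3 genes the replicates gave close ranks.

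Of the remaining ESCRT peaks, vps-25 had 105 at rank 583 (I, 12736645 to 12737028), with 55.4 at rank 611 and 47.8 at rank 645, its summit lay 55 bp upstream of one vps-25 start and within an intron of the gene, and a further peak of 64.6 at rank 1109 lay at another start. The vps-60 peak had 94.9 at rank 657 (V, 8606297 to 8606680, summit 361 bp upstream, no other gene), with 39.9 at rank 914 and 53.4 at rank 543. The vps-20 peak had 71.5 at rank 955 (I, 636618 to 637001), with 42.7 at rank 835 and 30.5 at rank 1490, 6 bp downstream of the vps-20 start and 465 bp upstream of eif-4A3, a gene of the exon junction complex. Among the lower ESCRT peaks, the ranks of vps-28 and vps-37 were the least even between replicates. The vps-2 peak had 66.1 at rank 1075 (II, 12768282 to 12768665), with 24.5 at rank 1683 and 36.5 at rank 1088, its replicate summits lay 135 bp apart, and it lay 257 bp upstream of vps-2 and 212 bp upstream of tiar-2. The vps-28 peak had 61.4 at rank 1188 (I, 13588794 to 13589177), with 37.4 at rank 990 and 21.5 at rank 2752. The vps-37 peak had the lowest signal of the bound genes, 52.9 at rank 1487 (V, 5592297 to 5592680), with 33 at rank 1157 and 19.7 at rank 3238. These last peaks, 155 bp and 211 bp upstream of their genes, lay in no other gene's window.

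Both unbound ESCRT genes had a pooled region below the IDR list. For vps-24, an ESCRT-III subunit, it was 28.9 at rank 3776, with 21.1 at rank 2058 in replicate 1 and 8.42 at rank 21539 in replicate 2. For vps-36, an ESCRT-II subunit, it was 14.7 at rank 15630, with no region in replicate 1. The ESCRT count moved with the rule for a bound gene, to 5 when only the IDR peaks of higher signal, 50% of them, were kept, to 6 when a peak was given to its nearest start alone, to 7 with a window of 500 and 100 bp, to 7 without replicate 1 and to 8 without replicate 2.

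The retromer genes, the SNARE genes sec-20 and sec-22, and the PI3 kinase genes had no IDR peak. The retromer gene vps-35 had 40.3 at rank 2201, with 14.9 at rank 3678 in replicate 1 and 26 at rank 1933 in replicate 2, while vps-26 and vps-29 had no pooled region. Of this SNARE pair, which encodes membrane fusion proteins, sec-22 had 6.41 at rank 19676 in replicate 1 and 11.6 at rank 10696 in replicate 2 with no pooled region, and sec-20 had no region in any list. The PI3 kinase regulator gene vps-15 had 19.6 at rank 8252, and vps-34, the kinase itself, had no region in any list. The unbound gene nearest the IDR list was vps-45, an SM family protein of the endosome, with 47.3 at rank 1765, 18.2 at rank 2583 and 32.5 at rank 1344.

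The ranks of bound genes repeated between replicates more closely than those of unbound ones. For the 27 bound trafficking genes the ratio of the larger to the smaller rank had a median of 1.32 and a maximum of 2.80, and it was at most 2 for 24 of them (88.9%). The 22 unbound trafficking genes with a region in both replicates had a median ratio of 2.48 and a maximum of 13.1, and 9 were within a ratio of 2 (40.9%). Other bound genes had a median of 1.43, with 75.9% within a ratio of 2. The IDR filter itself uses the repeat of ranks, so the difference between bound and unbound genes is a description.

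**Figure D3:**
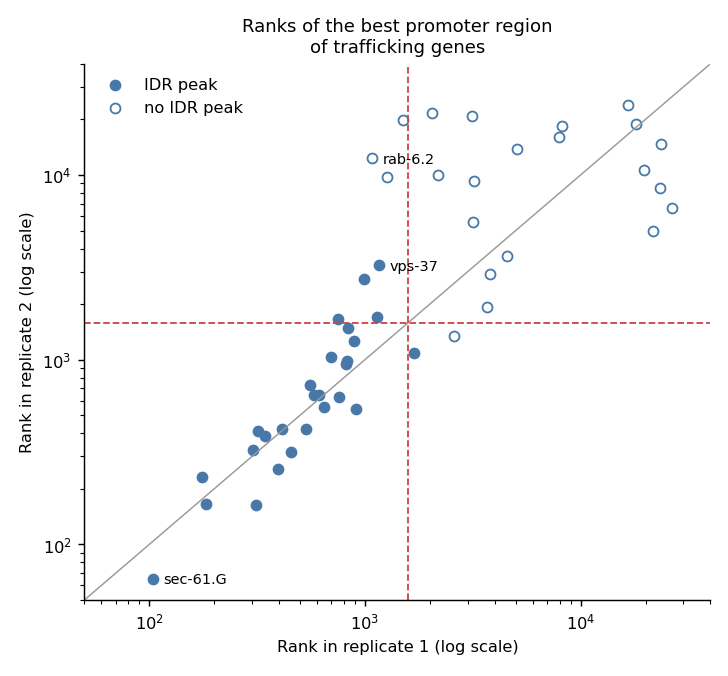
Rank of the best promoter region in replicate 1 (x axis) and replicate 2 (y axis), both on log axes, for trafficking genes with a region in both lists, filled where bound and open where not, with dashed lines at rank 1584. Bound genes lie along the diagonal with ranks up to 3238, and unbound genes such as rab-6.2 lie farther from it.

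Summits lay at distances close to those of other bound genes. The median distance was 246 bp upstream of the start for bound trafficking genes (quartiles 165.5 and 378) and 232 bp for other bound genes (quartiles 132 and 407). Between 100 and 300 bp upstream lay 13 of 27 trafficking summits (48.1%) and 45% of the others. Replicate summits were a median of 12 bp apart for trafficking genes and 18 bp for other bound genes, and within 50 bp for 26 of 27 (96.3%) and 84.4%. Of the 27 genes 17 shared the peak with another gene (63%), against 59.2% of other bound genes, and no peak lay in the windows of 2 trafficking genes. The own start was the nearest for 19 of 27 (70.4%) and for 69.6% of other bound genes. The 8 genes with a nearer neighbour were rab-11.1, rab-7, sec-15, sec-61.B, vps-2, vps-22, vps-32.1 and vps-51.

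**Figure D4:**
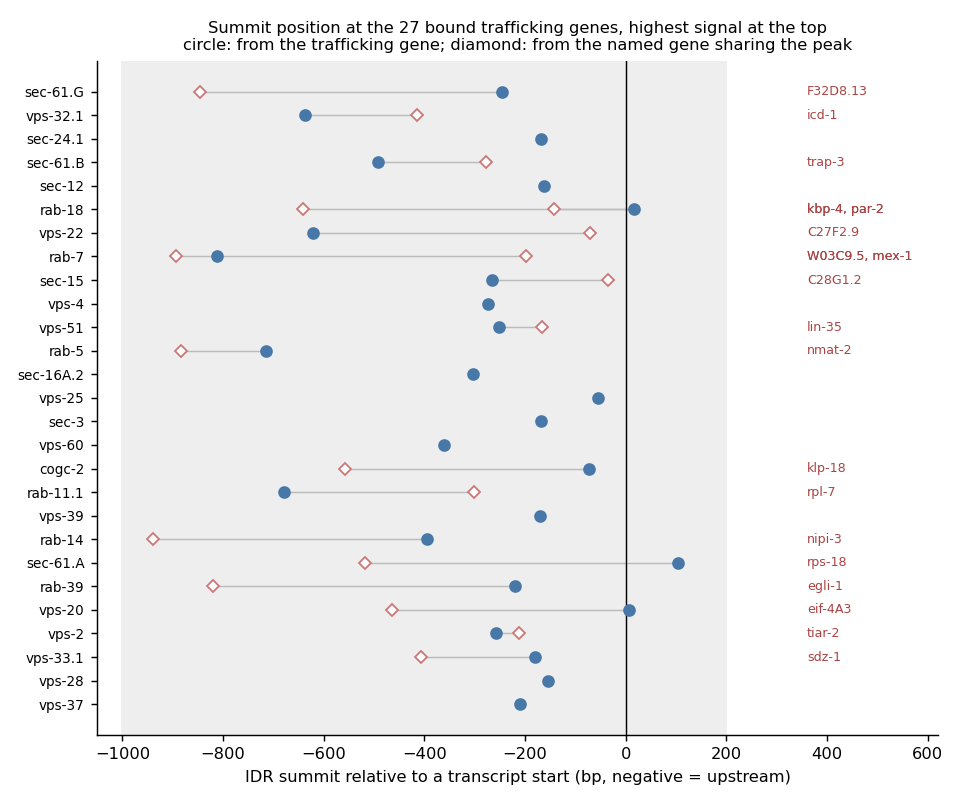
Distance of the peak summit from the transcript start (x axis, bp, negative upstream) for each bound trafficking gene (y axis) as circles on the grey promoter window, and from the start of each gene that shares the peak, named at the right, as diamonds. The median summit is 246 bp upstream, and those of rab-7, rab-5, rab-11.1, vps-32.1 and vps-22 are the farthest, at 622 to 812 bp.

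Close neighbours were more frequent at trafficking genes than at other genes. A divergent neighbour started within 1000 bp of 28 of 79 trafficking genes (35.4%) and of 17.6% of other genes. The bound share was 11 of 28 (39.3%) for trafficking genes with such a neighbour and 16 of 51 (31.4%) without, against 21.9% and 4.55% for other genes, so it was above that of other genes in both classes. A gene on the same strand ended within 1000 bp upstream of 30 trafficking genes (38.0%) and 28.8% of other genes, the arrangement found within worm operons, though operons were not annotated here. Of those 30 genes 4 were bound (13.3%), namely sec-12, sec-16A.2, sec-3 and vps-28, against 23 of the other 49 (46.9%). For other genes the shares were 5.57% with and 8.42% without such a neighbour.

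The role groups differed in this arrangement too. A same-strand gene ended close upstream of 4 of 7 COG genes, 4 of 8 HOPS and CORVET genes, all 3 retromer genes, 3 of 5 GARP and EARP genes and 4 of 20 Rab genes, and none of these was bound. One also ended close upstream of 4 of 7 COPII genes, of which 2 were bound, and of 3 of 8 exocyst genes, of which 1 was bound. Only 1 of 11 ESCRT genes, vps-28, had one. How far this arrangement and the bound share of a group go together was not tested. With neither kind of neighbour, 12 of 23 trafficking genes were bound (52.2%), against 4.16% of other genes. This class does not exclude shared peaks. The peaks of sec-61.G, vps-32.1, vps-22, rab-7, rab-5, rab-14 and rab-39, all among the 12, still lay in another gene's window. For vps-32.1, vps-22 and rab-7 the other start was nearer to the summit. By chromosome the bound share of trafficking genes ran from 23.1% on III, where other genes had 11.8%, to 44.4% on V, where other genes had 4.87%.

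Other genes of the pathway, taken by name, were bound less often than the trafficking genes described above but more often than the background. The list of 109 genes holds coat, adaptor, SNARE, ARF, sorting nexin and tethering genes, among others such as unc-108. Of the 109 genes 22 were bound (20.2%, all protein-coding genes 7.71%), among them unc-108 with 127 at rank 442. A pooled region lay at 78 of them (71.6%), close to the 72.2% of trafficking genes, where all protein-coding genes had 41.7%. The highest was copz-1, a COPI coat subunit, with 1022 at rank 21, 643 at rank 22 in replicate 1 and 376 at rank 22 in replicate 2, in a window shared with cyn-4. Next were syx-5, a Golgi SNARE, with 800 at rank 37 in a window shared with F55A11.1, and aps-3, an adaptor subunit, with 502 at rank 71 in a window shared with the ribosomal protein gene rpl-17. The adaptor gene aps-2 had 297 at rank 150 in a window of its own, and apb-1 had 209 at rank 230 in a window shared with mdt-19. All 5 had a higher pooled signal than sec-61.B, and 3 had a higher one than any trafficking gene counted above.

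One unbound trafficking gene had a strong region in a single replicate. At cogc-8 the replicate 1 list had a region of signal 280 at rank 85 (IV, 240360 to 240669, summit 240520, in the 5′ UTR of cogc-8), and no region of the replicate 2 or pooled list overlapped it. Of the first 100 regions of replicate 1 it was the only one without an overlap in the other lists. The cogc-8 start lies 15190 bp from the summit of the peak at rcat-1, the gene of the tagged protein. The stretch of chromosome IV from there to the nearest pooled region (237901 to 255405) was chosen after these values were seen. In it the replicate 1 list held 12 regions and the replicate 2, pooled and IDR lists held 0. The cause of this difference was not tested, and cogc-8 is unbound by the IDR list but among the 30 genes covered in the shortened replicate 1 list.

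**Figure D5:**
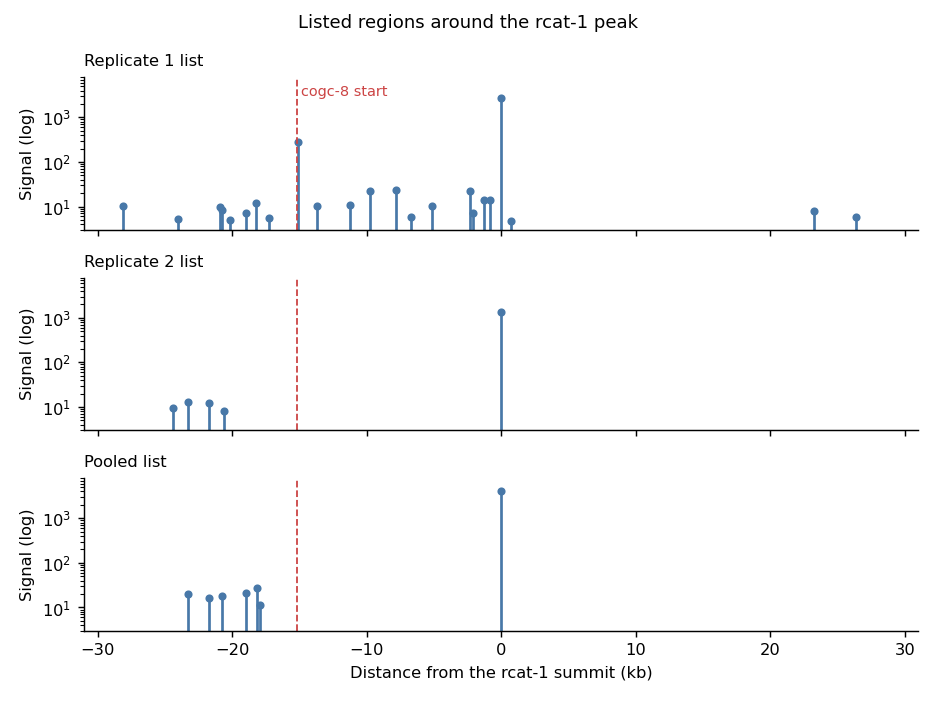
Signal of regions (y axis, authors' scale, log axis) against distance from the rcat-1 summit (x axis, kb) in the replicate 1, replicate 2 and pooled lists, with a dashed line at the cogc-8 start. Between the rcat-1 peak and the nearest pooled region on the left, replicate 1 has 12 regions, up to a signal of 280 at cogc-8, and the other lists have 0.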

How the data were processed

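Peak lists of 2 replicates of eGFP-tagged R02D3.7 ChIP-seq were used on the ce11 build, in narrowPeak format. Per the deposited list of files, each long list was derived from the alignment of a replicate, or of both, together with a control alignment that the replicates share. The signal of each region, its −log10 q-value and the summit offset in bp were deposited by the authors. Signal served to rank regions of 1 list, and −log10 values were inspected only. The sources used here name no caller, aligner, IDR threshold or read depth. Depth per sample is therefore unknown and no counting error is attached. The ce10 lists were not used here.

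Summits were assigned to transcript starts of Ensembl release 115 with Python 3.11.15, pandas 2.3.3 and numpy 2.4.6, and plotted with matplotlib 3.10.9. The assignment was tested on simulated summits. No statistical test was made. Six-base words were ranked by odds ratio, with 0.5 added to each cell, in 200 bp around summits against windows 500 bp to each side. Role groups came from gene names. Named were all bound members, the 5 highest unbound members, the highest member of each unbound role group and the 5 highest bound genes of the wider list; other genes named were chosen after their values were seen. Members and lists were chosen with earlier results of these data known.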

Additional observations from a re-analysis of the deposited data

How the results depend on the processing

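The count of bound trafficking genes was 27 and stayed within 1.5 times of that in all alternatives but one, from 18 with the IDR peaks of higher signal to 35 with a window of 2000 and 500 bp. Counting all regions of the pooled list gave 57 (15 rab, 14 sec, 4 cogc, 2 exoc and 22 vps genes), where the share of other genes also rose, to 41.6%. The share of trafficking genes was 4.27 to 5.07 times that of other genes in the other alternatives and 1.74 times with the pooled list. Among name classes, rab fell from 6 to 3 with a window of 500 and 100 bp, vps from 12 to 6 with the higher-signal peaks, and cogc rose from 1 to 2 with an overlap of 1 bp in place of the summit and to 3 with the wider window. Using 1 replicate list, shortened to 1584 regions, gave 24 to 30 bound genes (rab 5 to 7, sec 8 in both, cogc 1 to 3, exoc 0 to 1, vps 10 to 11). Without replicate 1, rab-39, vps-28, vps-33.1 and vps-37 were not bound and vps-45 was; without replicate 2, vps-2 was not, and cogc-4, cogc-8, exoc-7 and rab-6.2 were. The median signal of 41.9 became 24.5 to 26 in single replicate lists, whose scale differs. No paired analysis was possible because there is 1 group. Unknown depth limits what can be said of genes without a region, and the lists, though made with a control alignment, come with no sample of the tag alone or of another tagged protein.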
